A study of Mus musculus with 18 samples.

Results

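Stretches of the genome that carried dimethylated lysine 79 of histone H3 (H3K79me2) in naive CD4 T cells and in only 1 of the T helper lineages, Th1 or Th2, are described here. Overlapping and touching peaks of 9 broad peak lists (chromosomes 1 to 19 and X) were merged into 60558 regions, and a list counted as present where its peaks covered at least 50% of a region. Of the regions, 18735 were present in at least 2 of 3 naive lists. Of these, 305 regions (1.63%) were also present in at least 2 of 3 Th1 lists and in no Th2 list, and 714 regions (3.81%) in at least 2 of 3 Th2 lists and in no Th1 list. They are called Th1-kept and Th2-kept. The members were chosen by their coverage in all 9 lists, so coverage in these lists is given as a description and no test of it was made.

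The study addressed the role of DOT1L, the enzyme that makes H3K79me2, in mouse T helper cells, with 3 H3K79me2 libraries for each of 3 cell types. Naive cells were CD44- CD62L+ and were sorted straight from the spleens of WT mice. Th1 and Th2 cells were grown from enriched CD4+ T cells over 4 days on plates coated with anti-CD3 and anti-CD28. Th1 cultures held IL-12 with IL-2 and anti-IL-4, and their cells were sorted by the YFP of an IFNg reporter mouse. Th2 cultures held IL-4 with IL-2 and anti-IFNg, and their cells were sorted by AmCyan or dsRed, the reporters of IL-4 and IL-13. The genotype label is WT for all 9. The naive cells came from other mice than the cultured cells, so "kept" describes what groups of libraries share and not what single cells retained. Whether libraries of the same cell type stem from different animals is not given in the labels, so their spread may be technical.

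H3K79me2 is laid down by DOT1L behind the start of transcribed genes, where the enzyme travels with the elongation machinery, and it reaches further into genes that are strongly transcribed. Naive T cells that meet antigen leave quiescence and become, among other fates, Th1 cells, which make IFN-γ under T-bet and STAT4, or Th2 cells, which make IL-4, IL-5 and IL-13 under GATA3 and STAT6. A broad peak in a list marks a stretch where the caller found more reads than its background, and the percent of a region under such peaks is the measure used below. In a library made from many cells, fewer cells with the mark and less mark per cell cannot be told apart.

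Few of these regions reached the start of a gene, and the sequences upstream of 3 starts that did show how the difference sat at a promoter. They are given as RefSeq promoters on GRCm38.p6, in the direction of the gene, up to the last base before its start and without bases that lie in another annotated gene. Capitals mark a match to a motif on either strand. A GATA-type match is GATA after A or T and before A or G, and a STAT6-type match is TTC and GAA with any 4 bases between.
Il18r1, chr1:40465419-40465551, plus strand: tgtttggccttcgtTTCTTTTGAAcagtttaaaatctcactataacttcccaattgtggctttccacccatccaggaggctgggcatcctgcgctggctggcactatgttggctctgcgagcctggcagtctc
Ccr8, chr9:120091883-120092132, plus strand: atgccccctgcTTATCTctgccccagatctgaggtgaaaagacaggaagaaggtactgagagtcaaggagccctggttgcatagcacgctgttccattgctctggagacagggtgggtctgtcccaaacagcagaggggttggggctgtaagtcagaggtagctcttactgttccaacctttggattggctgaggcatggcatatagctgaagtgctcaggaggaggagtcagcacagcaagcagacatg
Chn2, chr6:54039682-54039931, plus strand: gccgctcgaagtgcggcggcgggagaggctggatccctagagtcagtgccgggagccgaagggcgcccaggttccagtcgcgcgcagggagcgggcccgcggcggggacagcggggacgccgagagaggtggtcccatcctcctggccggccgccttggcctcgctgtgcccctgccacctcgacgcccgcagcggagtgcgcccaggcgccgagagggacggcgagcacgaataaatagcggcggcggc

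Il18r1 encodes a chain of the IL-18 receptor, through which IL-18 raises IFN-γ in Th1 cells. Its upstream bases, which hold 1 STAT6-type match and 3 CpG, were covered at 9.77%, 100% and 100% in the naive lists, at 100% in each Th1 list and at 0% in each Th2 list. Ccr8, a chemokine receptor gene of Th2 cells, showed the opposite at its 250 bases with 1 GATA-type match and 1 CpG. They were covered at 100% in each naive and each Th2 list and at 0%, 10.0% and 0% in the Th1 lists. The 250 bases before Chn2, which encodes a GTPase-activating protein for Rac, hold 34 CpG and none of these matches. They lay fully under peaks in all naive lists and under none in the Th1 lists, and were covered at 100%, 2.40% and 100% in the Th2 lists. Other members had their start covered everywhere and differed further in: the 250 bases before Glb1, a lysosomal enzyme gene, were at 100% in all 9 lists. Ccr8 was chosen for this after its values were seen.

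The same motifs were counted upstream of other genes. GATA-type matches were found in 15 of 80 promoters of genes whose start lies in a Th1-kept region (18.75%) and in 28 of 177 for Th2-kept regions (15.8%), against 15.8% of 6951 promoters in regions present in all 3 cell types and 23.6% of all 21044 promoters. STAT6-type matches were in 5% and 4.52%, against 4.07% and 5.44%. The T-box letters GGTGTGA were in 3.75% and 2.82%, against 2.78% and 3.11%, and STAT4-type matches (TTC and GAA with any 3 bases between) in 8.75% and 6.78%, against 6.03% and 6.64%. The windows of these shares are the 250 bases before the start, and a gene with several starts enters once for each. A match is a description of the letters and not a site.

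Th1-kept regions added up to 3.44 Mb and Th2-kept regions to 10.8 Mb. Their widths were alike, with medians of 6.80 and 7.07 kb and ranges of 0.380 to 102.4 kb and 0.342 to 334.6 kb. All 18735 naive regions had a median of 6.66 kb. Regions of at least 50 kb numbered 6 of 305 Th1-kept, 42 of 714 Th2-kept and 1413 of 18735 naive regions. Those of at least 100 kb numbered 1, 13 and 346. Both sets were narrower than the 7069 regions present in the naive, Th1 and Th2 groups (median 20.6 kb) and wider than the 8340 that no Th1 or Th2 list reached (2.60 kb).

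The larger number of Th2-kept regions did not hold under every treatment of the lists. The Th1 lists covered 217.0 to 240.1 Mb and the Th2 lists 232.2 to 249.9 Mb, and the naive lists 275.6 to 284.9 Mb. When each list was trimmed of its weakest peaks to the same covered length, 167 Th1-kept and 193 Th2-kept regions were found, and with only peaks of a −log10 q of at least 5 there were 205 and 196. The trim to the same length left 9174 to 9846 of 38026 to 40455 peaks in the naive lists and all 41504 in Th1 library 3. A member can thus also drop out because naive lists fall short, and the part of this was not tested. Leaving out single libraries also moved the counts. In the lineage that lost a list, kept then meant present in both remaining lists and absent meant in neither, so the rule changed too. The part of this change in the moves was not tested. Th1-kept regions numbered 146 without Th1 library 1, 197 without Th1 library 2 and 482 without Th2 library 3, and Th2-kept regions 453 without Th2 library 2 and 434 without Th2 library 3. Without Th2 library 3 the order of the counts was thus turned. The lists do not give read depth.

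In the Th1-kept regions, peaks covered 81.6%, 80.3% and 84.2% of all bases in the naive lists, 71.3%, 61.1% and 59.2% in the Th1 lists and 29.6%, 32.5% and 34.7% in the Th2 lists. The means were 82.0% ± 2.01, 63.9% ± 6.47 and 32.2% ± 2.57 (SD, n = 3 each). In the Th2-kept regions they covered 87.4%, 86.2% and 88.8% in the naive lists, 30.9%, 26.2% and 27.1% in the Th1 lists and 63.2%, 68.2% and 70.3% in the Th2 lists. The means were 87.5% ± 1.27, 28.1% ± 2.47 and 67.2% ± 3.64 (SD, n = 3 each). The kept lineage thus lay below the naive lists in both sets. The rule set the gap between the kept and the other lineage, and whether the gap to the naive lists depends on it too was not tested. The latter gap is not particular to members. In regions present in all 3 cell types, medians per region were 92.4% in naive, 79.8% in Th1 and 81.3% in Th2 lists. The like medians were 75.6% in naive and 59.1% in Th1 lists for Th1-kept regions. They were 80.45% in naive and 60.4% in Th2 lists for Th2-kept regions.

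Absent in the other lineage seldom meant bare. No base was covered in any of the 3 lists of the other lineage in 19 of 305 Th1-kept and 98 of 714 Th2-kept regions. The mean there was under 10% in 55 and 204 regions and at least 40% in 68 and 93. The kept lineage exceeded the other by a median of 35.03 percentage points (quartiles 20.2 and 48.4) in Th1-kept and 42.3 points (quartiles 27.2 and 54.2) in Th2-kept regions. The difference was 50 points or more in 71 Th1-kept (23.3%) and 235 Th2-kept regions (32.9%), and under 25 points in 101 (33.1%) and 159 (22.3%). In 97 and 143 regions the lists of the kept and of the other lineage overlapped.

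Kept did not mean full either. All 3 lists of the kept lineage lay below all 3 naive lists in 124 Th1-kept (40.7%) and 319 Th2-kept regions (44.7%), and above them in 23 (7.54%) and 39 (5.46%). All 3 lists of the kept lineage reached 50% in 119 of 305 and 348 of 714 regions. The list that fell short was unevenly shared: 13, 75 and 98 Th1-kept regions were under 50% in Th1 libraries 1, 2 and 3, and 207, 100 and 59 Th2-kept regions in Th2 libraries 1, 2 and 3. The fewest fell short in the list of each lineage with the greatest covered length, which was 240.1, 222.0 and 217.0 Mb in the Th1 and 232.2, 238.9 and 249.9 Mb in the Th2 libraries.

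**Figure D1:**
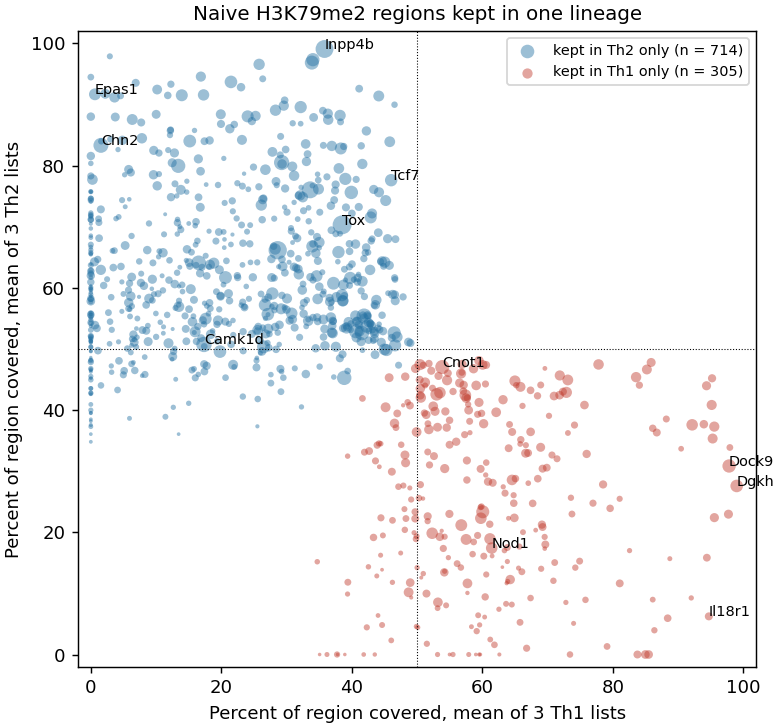
Each point is a Th1-kept (red, n = 305) or Th2-kept region (blue, n = 714), placed by the mean percent of it that was covered in the 3 Th1 lists (x axis) and the 3 Th2 lists (y axis), with a larger point for a wider region and dotted lines at 50%. The difference between lineages runs from -0.280 to 88.5 points in Th1-kept and from 0.183 to 94.98 points in Th2-kept regions, and 98 Th2-kept regions lie at 0% in all Th1 lists.

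The lists that played no part in a choice give values that the rule did not fix. Regions were chosen anew without libraries 1 of each cell type, then without libraries 2 and without libraries 3, as present in both remaining lists of naive cells and of 1 lineage and in neither of the other. With libraries 1, 2 and 3 left out, 167, 251 and 337 regions were chosen as Th1-kept. Of these, 88.6%, 63.7% and 55.8% were at 50% or more in the left-out Th1 list, and 14.4%, 23.9% and 41.2% in the left-out Th2 list. Over all 17497, 17127 and 17210 regions in both remaining naive lists, the same shares were 50.4%, 45% and 44.2% for Th1 and 47.7%, 50.4% and 53.3% for Th2. The median left-out difference of Th1 over Th2 was 41.0, 20.8 and 8.09 points, so that it was smallest where the narrowest Th1 list met the widest Th2 list.

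Regions chosen as Th2-kept numbered 819, 494 and 462. Their left-out Th2 lists were present in 67.3%, 80.8% and 84.6%, and their left-out Th1 lists in 31.4%, 9.11% and 7.79%. The median left-out difference of Th2 over Th1 was 18.2, 39.2 and 43.0 points. The left-out naive list was present in 88.6%, 88.0% and 93.8% of the Th1-kept and 93.9%, 91.3% and 95.0% of the Th2-kept choices, against 86.8%, 84.9% and 90.3% of all such regions. In every one of the 6 choices the left-out list of the kept lineage was present more often than that of the other. The 3 choices of a direction share libraries, so no test was made.

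**Figure D2:**
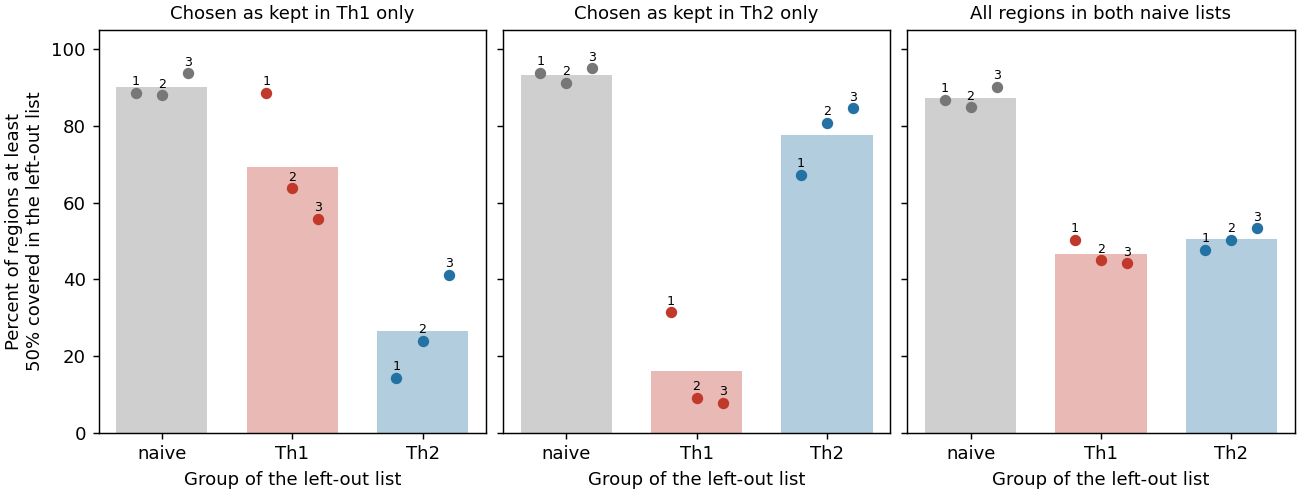
Percent of regions that were at least 50% covered in a list not used to choose them (y axis), by the cell type of that list (x axis). Points numbered 1 to 3 are the left-out libraries and bars are their means, for regions chosen as Th1-kept, as Th2-kept, and for all regions in both other naive lists. Th1 points of the first panel lie at 55.8 to 88.6% and its Th2 points at 14.4 to 41.2%; in the second panel Th1 lies at 7.79 to 31.4% and Th2 at 67.3 to 84.6%.

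Over all 16 gene lists (T cell genes, markers of other cell types, and DOT1L with its partners), the Th1-kept regions touched 7 of 215 listed genes with a naive region (3.26%), against 257 of 10483 protein-coding genes with a naive region (2.45%). The Th2-kept regions touched 14 of the 215 (6.51%), against 490 of 10483 (4.67%). Both shares lay near those of all genes. The Th1 list gave 1 gene to each direction out of 7 with a naive region, Il18r1 and Ifngr2. The Th2 list gave 1 of 10 to the Th1-kept regions, Il1rl1, and 3 to the Th2-kept regions, Ccr4, Ccr8 and Epas1. The naive and quiescence list gave 1 of 28, Igfbp4, and 4, Tcf7, Klf3, Zbtb20 and Arhgap15. None of 44 genes of T cell receptor signalling and activation lay in either set.

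The region at Il18r1 (chr1:40464199-40475084, 10.9 kb) spans the start of that gene and the end of Il1rl1, which encodes the IL-33 receptor chain ST2. Peaks covered 63.3%, 78.0% and 82.7% of it in the naive, 97.1%, 98.5% and 88.5% in the Th1 and 0%, 6.74% and 11.98% in the Th2 lists. All Th1 lists were above and all Th2 lists below every naive list, a difference of 88.5 points between the lineages and the largest among Th1-kept regions of at least 2 kb. Over the whole of Il18r1 the covered share came to 33.1% ± 4.18 in naive, to 77.7% ± 1.89 in Th1 and to 2.12% ± 1.91 in Th2 libraries (SD, n = 3 each), so the mark also ran further into the gene in Th1 than in naive cells. It overlapped a member when any single library was left out and with matched covered length.

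Stat2, which transmits type I interferon signals, held a region of 6.22 kb (chr10:128282806-128289026). It was at 98.2%, 74.1% and 94.0% in naive, 88.0%, 62.9% and 63.4% in Th1 and 29.5%, 39.2% and 27.3% in Th2 lists, and Th2 lay apart from both other groups, which overlapped. Aff1, a subunit of the super elongation complex, held a region of 23.6 kb (chr5:103692322-103715914). It was at 77.9%, 66.8% and 78.0% in naive, 75.7%, 56.7% and 40.7% in Th1 and 7.21%, 7.54% and 20.2% in Th2 lists. Th1 library 3 fell under 50% there, and Th2 was lowest throughout.

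Tcf4, which encodes the E protein E2-2, held 2 Th1-kept regions of 5.47 and 5.19 kb, and their Th1 lists spread widely. The first (chr18:69418335-69423800) was at 69.8%, 34.8% and 69.6% in naive, 83.4%, 99.6% and 54.3% in Th1 and 3.95%, 0% and 0% in Th2 lists. In the second (chr18:69378287-69383478) the Th1 lists were at 99.6%, 55.5% and 30.5%, with naive lists at 49.6%, 57.4% and 53.5% and Th2 lists at 0%, 0% and 4.76%. In both, Th1 and naive lists overlapped and Th2 was nearly bare. Igfbp4, a gene of naive T cells, was a member by a small margin. Its 20.7 kb (chr11:99034942-99055605) were at 85.9%, 99.3% and 86.8% in naive, 55.1%, 60.9% and 59.9% in Th1 and 40.4%, 49.9% and 49.95% in Th2 lists. Klf7, a Krüppel-like factor gene, was at 63.8%, 37.7% and 69.98% in naive, 92.5%, 44.7% and 60.2% in Th1 and 21.2%, 36.1% and 46.1% in Th2 lists over 2.91 kb, with Th1 and Th2 overlapping.

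The widest Th1-kept regions fell into 2 kinds. In Dock9, Dgkh and Coq2 the Th1 lists exceeded the naive lists. Dock9 encodes an exchange factor for Cdc42, and its 83.4 kb (chr14:121689572-121772970) were covered at 63.7%, 72.9% and 78.996% in naive, 98.8%, 98.4% and 96.3% in Th1 and 24.9%, 28.7% and 38.9% in Th2 lists. Dgkh, a diacylglycerol kinase gene, was at 85.4%, 78.8% and 80.1% in naive, 99.96%, 98.7% and 98.3% in Th1 and 23.9%, 25.8% and 33.1% in Th2 lists over 66.0 kb (chr14:78666455-78732415). In both, Th1 formed nearly closed domains, naive cells had gaps and Th2 cells had scattered peaks. Coq2, an enzyme gene of coenzyme Q synthesis, was at 58.3%, 53.7% and 63.3% in naive, 97.7%, 91.4% and 87.4% in Th1 and 25.8%, 37.1% and 49.8% in Th2 lists over 46.7 kb (chr5:100628499-100675150).

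In the other 7 of the 10 widest the naive lists were higher than all Th1 and Th2 lists. Nod1, a sensor of bacterial peptidoglycan, was at 94.3%, 96.8% and 99.4% in naive, 67.3%, 60.9% and 56.2% in Th1 and 16.2%, 21.4% and 14.6% in Th2 lists over 46.5 kb (chr6:54929730-54976239). Sipa1l2 was at 99.8%, 99.2% and 99.7% in naive, 72.8%, 54.7% and 52.7% in Th1 and 18.8%, 28.8% and 22.4% in Th2 lists over 76.2 kb (chr8:125493292-125569528). These steps from naive through Th1 to Th2 were clear of overlap, as they were in Kansl1l, whose Th1 lists were at 51.1 to 69.6% and Th2 lists at 15.9 to 27.2%, and in Gab3, an adaptor protein gene, at 45.1 to 68.3% and 18.8 to 24.2%. Cnot1, the scaffold of the CCR4-NOT deadenylase, was the widest at 102.4 kb (chr8:95713175-95815595), but its lineages were close, at 56.5%, 52.3% and 52.8% in Th1 and 46.5%, 46.3% and 48.3% in Th2 lists. Pnrc1, a nuclear receptor coactivator gene, had Th1 lists at 48.7 to 62.4% and Th2 lists at 40.7 to 43.5%. Smarca2, an ATPase of chromatin remodelling, had Th1 lists at 45.5 to 59.5% and Th2 lists at 39.5 to 45.6%, which overlapped.

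Other Th1-kept regions with a large difference were bare in Th2 cells. Those in Mctp2, Bend4 and 1700025G04Rik were at 0% in all 3 Th2 lists. Mctp2 was at 34.95%, 60.7% and 62.5% in naive and 100%, 78.2% and 76.8% in Th1 lists over 15.2 kb (chr7:72227812-72242983). Bend4, which encodes a BEN domain protein, was at 67.4%, 47.1% and 60.5% in naive and 86.2%, 70.7% and 94.4% in Th1 lists over 10.6 kb (chr5:67402503-67413080). In both genes every Th1 list was above every naive list. 1700025G04Rik was at 79.6%, 66.5% and 81.7% in naive and 93.1%, 72.0% and 91.4% in Th1 lists over 14.7 kb (chr1:151889264-151903939), and the 2 groups overlapped. The regions of Mctp2 and Bend4 were lost when some library was left out, and that of 1700025G04Rik with matched covered length.

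Of 26 genes with a naive region in the list of cytokine receptors and signal inhibitors, 1 lay in Th2-kept regions (3.85%, against 4.67% of all genes), Acvr2a. In Th1-kept regions it was also 1 (3.85%, against 2.45%), Stat2. Ifngr2 and Ccr8, described next, belong to other lists. Ifngr2, the signalling chain of the IFN-γ receptor, is known to be low in Th1 cells, which leaves them less responsive to their own IFN-γ. Its region (chr16:91551619-91564739, 13.1 kb) was at 95.8%, 98.6% and 97.3% in naive, 0% in each Th1 and 73.9%, 97.2% and 73.7% in Th2 lists. No Th1 list had a peak anywhere in Ifngr2, of which 72.9% ± 0.135 was covered in naive and 61.0% ± 10.4 in Th2 libraries (SD, n = 3 each). Ccr8 was at 91.1%, 86.7% and 84.3% in naive, 23.4%, 24.1% and 21.5% in Th1 and 91.1%, 95.2% and 92.3% in Th2 lists over 13.8 kb (chr9:120085872-120099671). Th2 and naive lists met there, and Th1 lay far below. Both regions overlapped members when any single library was left out and with matched covered length, and both genes were named after their values were seen.

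Beside Ccr8 lay a stretch without any annotated gene (chr9:120071439-120084968, 13.5 kb), which starts 3.14 kb from Cx3cr1 and ends 7.17 kb from Ccr8. It was at 53.7%, 46.6% and 50.9% in naive, 0% in each Th1 and 87.1%, 92.2% and 84.8% in Th2 lists, so that all Th2 lists exceeded the naive lists. Ccr4, another chemokine receptor of Th2 cells, lay in a region of 101.2 kb (chr9:114398224-114499412) that is mostly Glb1 and also holds Tmppe. That region was at 79.5%, 72.7% and 78.8% in naive, 40.2%, 30.6% and 30.8% in Th1 and 96.8%, 97.7% and 96.1% in Th2 lists. Ccr4 itself differed little, at 49.1% ± 6.17, 43.0% ± 1.24 and 58.0% ± 1.78 in naive, Th1 and Th2 libraries (SD, n = 3 each). Acvr2a, an activin receptor gene, held 2 regions, the wider of which (chr2:48814422-48839776, 25.4 kb) was at 72.8%, 72.2% and 85.2% in naive, 34.3%, 29.4% and 28.9% in Th1 and 62.1%, 87.2% and 90.3% in Th2 lists. Nrp1, which encodes the surface protein neuropilin-1, also held 2, the wider (chr8:128357957-128391097, 33.1 kb) at 83.2%, 88.3% and 89.9%, 27.2%, 22.3% and 30.8%, and 92.4%, 66.9% and 78.7% in naive, Th1 and Th2 lists. Th1 lists were apart from the rest in both, while naive and Th2 lists overlapped.

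Of 31 genes with a naive region in the list of lymphocyte transcription factors, 1 lay in Th2-kept regions (3.23%, against 4.67% of all genes) and 2 in Th1-kept regions (6.45%, against 2.45%). They were Nr1d2, and Tcf4 and Klf7, while Epas1, Tcf7, Tox and Klf3 belong to other lists. Epas1, which encodes the hypoxia-inducible factor HIF-2α, held a region of 51.2 kb (chr17:86754006-86805249). It was at 51.4%, 68.2% and 68.6% in naive, 1.88%, 0% and 0% in Th1 and 87.5%, 89.8% and 97.7% in Th2 lists, with every Th2 list above every naive list. Tcf7 encodes TCF-1, a factor of naive and memory T cells. Its region (chr11:52251944-52313815, 61.9 kb) was at 98.2%, 99.5% and 100% in naive, 45.7%, 44.8% and 47.6% in Th1 and 75.01%, 85.0% and 72.9% in Th2 lists. It reached past the gene, and within Tcf7 itself the lineages were closer, at 75.8% ± 1.54 in Th1 and 88.9% ± 3.26 in Th2 cells against 96.4% ± 1.82 in naive cells (SD, n = 3 each).

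Tox, a gene of an HMG-box factor with roles in T cell development and exhaustion, gave the widest region of all (chr4:6687602-7022155, 334.6 kb). It was at 98.9%, 99.5% and 99.1% in naive, 33.8%, 34.4% and 47.3% in Th1 and 69.5%, 72.1% and 69.4% in Th2 lists, 3 levels without overlap. Klf3, a Krüppel-like repressor gene, stepped down alike over 31.8 kb (chr5:64797006-64828835), at 87.2%, 91.3% and 97.8%, 36.3%, 46.0% and 46.1%, and 59.3%, 63.2% and 66.3% in naive, Th1 and Th2 lists. Nr1d2, which encodes the nuclear receptor REV-ERBβ, was at 99.98%, 99.3% and 97.7%, 46.3%, 19.7% and 33.1%, and 80.0%, 87.9% and 74.2% over 19.3 kb (chr14:18219049-18238328). Ahr, the aryl hydrocarbon receptor gene, was higher in Th2 than in naive lists over 9.58 kb (chr12:35525403-35534982), at 92.6%, 98.7% and 86.5% against 75.1%, 59.5% and 56.3%, with 37.3%, 48.8% and 37.3% in Th1 lists. Zbtb20 and the inhibitory receptor gene Tigit shared a region of 10.4 kb (chr16:43625786-43636169) at 48.0%, 69.8% and 66.8% in naive, 27.4%, 31.9% and 11.4% in Th1 and 52.9%, 44.0% and 73.5% in Th2 lists. Nr1d2, Ahr, Zbtb20 and Tigit were named after their values were seen.

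Arhgap15, a GTPase-activating protein for Rac, held 10 separate regions of together 245.1 kb, the most of any gene. Its widest (chr2:44086694-44167956, 81.3 kb) was at 81.5%, 82.4% and 82.6% in naive, 45.6%, 34.5% and 22.0% in Th1 and 96.3%, 98.8% and 97.0% in Th2 lists. Over the whole gene, naive and Th2 cells were close at 75.1% ± 1.83 and 77.4% ± 3.17, against 37.9% ± 4.05 in Th1 cells (SD, n = 3 each). Regions of 1 gene may be parts of 1 domain and are not separate observations.

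Chn2, another Rac-directed GTPase-activating protein, lost nearly all coverage in Th1 cells. Its 131.2 kb (chr6:54036539-54167769) were at 96.7%, 96.6% and 97.3% in naive, 2.67%, 1.75% and 0.226% in Th1 and 83.1%, 81.5% and 85.5% in Th2 lists. Tiam1, an exchange factor for Rac, held 6 regions of together 109.3 kb. The one with the largest difference (chr16:89971913-89997106, 25.2 kb) was at 82.6%, 74.1% and 87.5% in naive, 1.68%, 2.63% and 2.34% in Th1 and 84.9%, 99.8% and 90.6% in Th2 lists. Th1 lists were nearly bare in both, and naive and Th2 lists overlapped in Tiam1 but not in Chn2.

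Inpp4b, a phosphatase of the PI3K pathway, held 6 regions of together 372.3 kb. The widest (chr8:81454734-81721685, 267.0 kb) was at 84.7%, 82.6% and 87.3% in naive, 33.4%, 30.1% and 44.0% in Th1 and 99.2%, 98.7% and 99.3% in Th2 lists, with Th2 above naive throughout. Ldlrad4, an inhibitor of TGF-β signalling, was at 99.2%, 98.7% and 98.8%, 32.1%, 25.9% and 27.95%, and 60.1%, 66.3% and 72.1% in naive, Th1 and Th2 lists over 292.9 kb (chr18:67933994-68226856). Nedd4l, an E3 ubiquitin ligase gene, was at 99.3%, 99.97% and 99.4%, 35.9%, 28.9% and 36.0%, and 71.4%, 77.9% and 78.9% over 215.2 kb (chr18:64887898-65103050). The last 2 went down from naive cells to Th2 and further to Th1 cells.

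Tle4, a Groucho-type corepressor gene, showed the same order over 141.5 kb (chr19:14456362-14597839), at 99.2%, 99.9% and 99.5% in naive, 30.5%, 26.2% and 31.0% in Th1 and 74.8%, 83.1% and 83.7% in Th2 lists. So did Cers6, a ceramide synthase gene, with Th1 lists at 14.5 to 18.8% and Th2 lists at 58.7 to 67.3%, and the kinase gene Camk1d, at 12.8 to 22.5% and 46.9 to 54.1%. Scml4 and Btbd9 were members by smaller margins, with Th1 lists at 39.4 to 43.0% and 35.7 to 48.8% and Th2 lists at 50.4 to 56.5% and 53.3 to 57.1%. With only peaks of a −log10 q of at least 5 the mean of Th2 minus that of Th1 at Btbd9 was -0.258 points.

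The largest difference among Th2-kept regions was in a short stretch. Atg14, a subunit of the autophagy PI3-kinase complex, was at 79.6%, 72.8% and 61.5% in naive, 8.74%, 0% and 0% in Th1 and 99.5%, 96.6% and 97.6% in Th2 lists over 3.55 kb (chr14:47542234-47545780). All Th2 lists exceeded all naive lists there, and all Th1 lists lay below them.

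**Figure D3:**
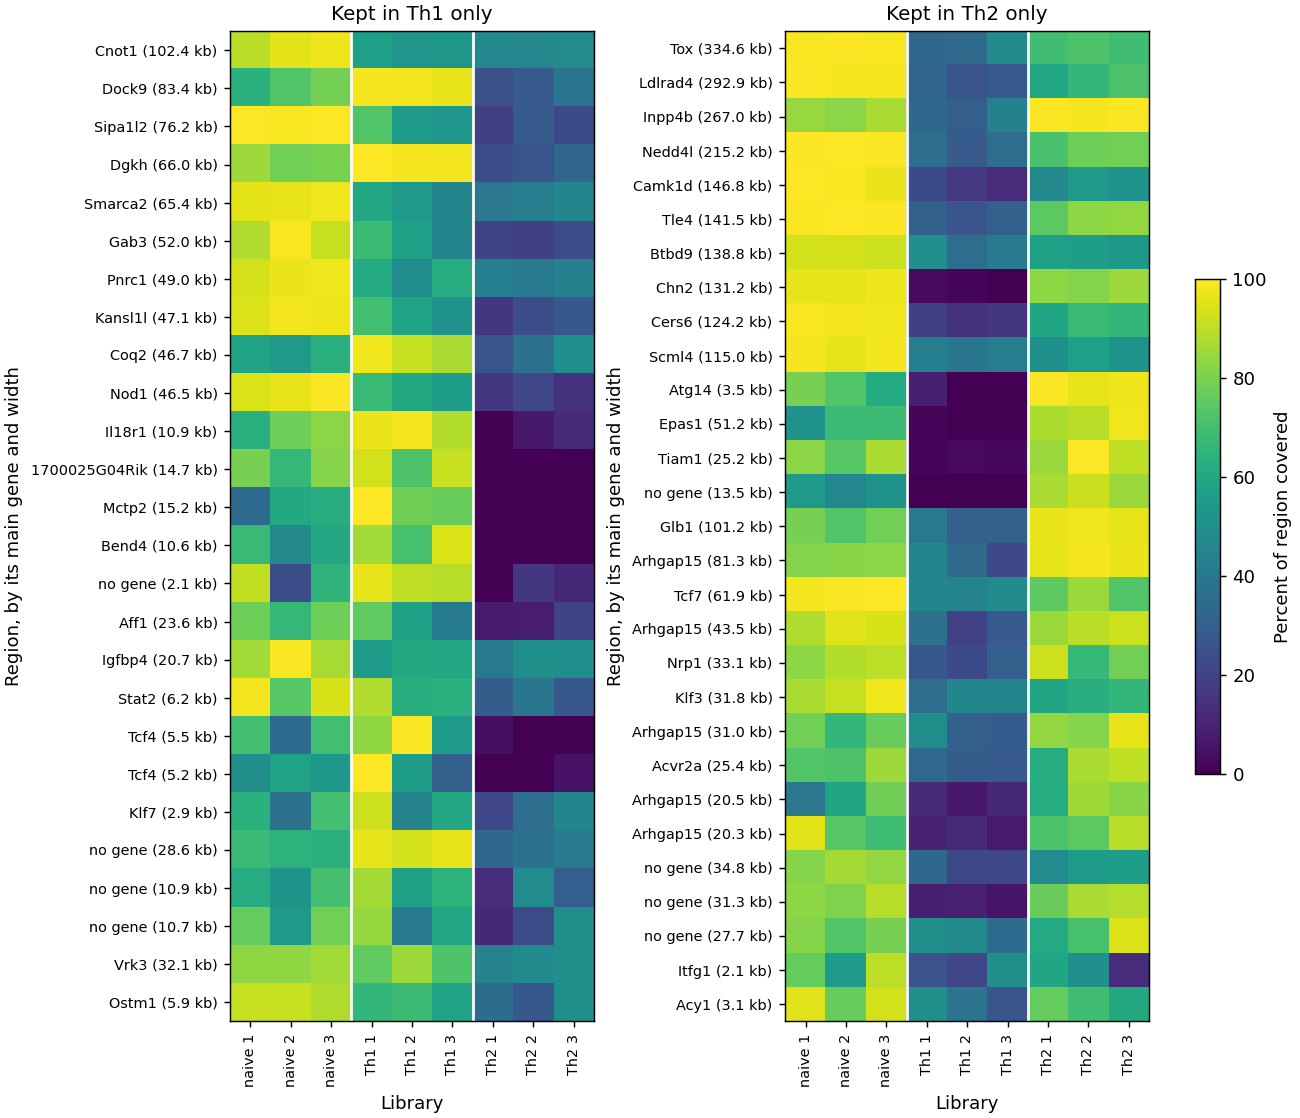
Percent covered (colour, 0 to 100) in each of the 9 lists (columns, with white lines between naive, Th1 and Th2) for the named Th1-kept and Th2-kept regions (rows, by main gene and width in kb). Th1 columns at Chn2 (0.226 to 2.67%) and Th2 columns at Mctp2 and Bend4 (0%) are dark, while the kept lineage at Camk1d, Cnot1 or Scml4 stays near 50%.

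**Figure D4:**
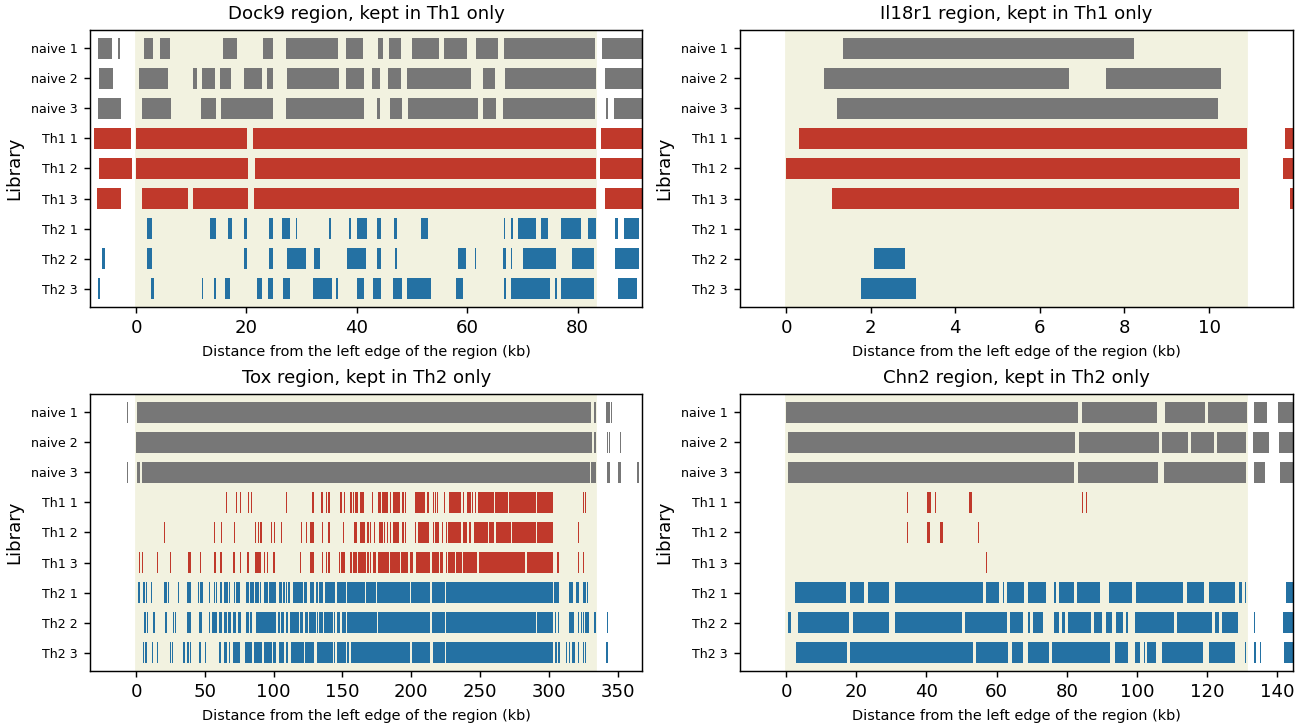
Peaks of each list (bars, 1 row per library) along the regions of Dock9, Il18r1, Tox and Chn2, with the distance from the left edge of the region in kb on the x axis and the region shaded. Peaks of the kept lineage nearly fill Dock9 and Il18r1, those of Th2 break up in Chn2, and in Tox the Th1 peaks crowd towards the right edge.

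Regions without an annotated gene numbered 37 of 305 Th1-kept (12.1%) and 114 of 714 Th2-kept (16.0%), against 10.7% of all naive regions. The widest Th1-kept one (chr9:61662677-61691325, 28.6 kb) lies 222.0 kb from Rplp1, the nearest protein-coding gene. It was at 68.1%, 64.6% and 63.5% in naive, 96.5%, 93.4% and 96.8% in Th1 and 33.8%, 36.5% and 41.6% in Th2 lists. The widest Th2-kept ones lie at chr17:52438645-52473460 (34.8 kb), 129.2 kb from Kcnh8, and at chr4:149840508-149871822 (31.3 kb), 24.5 kb from Spsb1. The second was at 83.0%, 80.7% and 89.3% in naive, 8.94%, 9.01% and 5.51% in Th1 and 77.3%, 87.3% and 88.8% in Th2 lists. Another, of 27.7 kb (chr2:117366291-117393969), lies 23.4 kb from Rasgrp1, a Ras exchange factor of T cells, with Th1 lists at 35.1 to 49.7% and Th2 lists at 61.0 to 94.8%.

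Protein-coding genes were touched by 252 Th1-kept (82.6%) and 557 Th2-kept regions (78.0%), against 84.2% of all naive regions and 96.0% of those in all 3 cell types. A gene start lay in 54 (17.7%) and 107 (14.99%), against 25.5% and 55.2%, and against 4.44% of regions in naive cells only. Strand, and so the start, was known for 17273 of 21627 protein-coding genes. The main gene had a median length of 56.6 kb in Th1-kept and 93.6 kb in Th2-kept regions, against 58.2 kb for all naive regions, 34.4 kb for regions in all 3 cell types and 93.8 kb for those in naive cells only. The region held a median of 12.02% and 11.6% of that gene, against 16.4%, 65.1% and 2.99%.

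The same gene also held a region present in all 3 cell types for 138 Th1-kept (45.2%) and 274 Th2-kept members (38.4%), against 63.9% of all naive regions and 44.4% of those in naive cells only. Such a region lay within 10 kb of 125 (41.0%) and 227 (31.8%) members, against 33.7% of all naive regions and 30.1% of those in naive cells only. In Tcf7 it lay 0.113 kb away and in Klf7 0.828 kb, whereas the nearest was 1312 kb from Tle4 and 571 kb from Chn2. Of 10483 protein-coding genes with a naive region, 257 (2.45%) overlapped Th1-kept and 490 (4.67%) Th2-kept regions. The genes with both were 3, Ano10, Dennd1b and Exoc4, and whether that is fewer than these shares would give was not tested. As main gene, 20 genes held 2 or more Th1-kept and 68 genes 2 or more Th2-kept regions.

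From a gene's start inward, the lineages parted with distance. Members with exactly 1 gene start were used that reach at least 15 kb into the gene, 21 Th1-kept and 24 Th2-kept. In the Th2-kept ones, such as Tcf7, Chn2, Glb1 and Vdac1, the second kilobase was covered at 95.3% ± 0.427 in naive, 81.2% ± 3.17 in Th1 and 97.0% ± 0.713 in Th2 libraries (SD, n = 3 each). At 14 to 15 kb it was 96.7% ± 2.95, 28.8% ± 4.35 and 62.4% ± 6.65. In the Th1-kept ones, such as Nod1, Aff1, Cenpf and Madd, the second kilobase was at 100% ± 0, 99.6% ± 0.673 and 82.4% ± 1.88 in the naive, Th1 and Th2 groups, and the kilobase from 14 to 15 kb at 89.5% ± 5.90, 48.0% ± 13.6 and 24.5% ± 5.64. On average, peaks near the start were thus still present in the lineage called absent, and the naive domains ran furthest. In 1522 regions present in all 3 cell types, the same far bin was at 95.9% ± 0.208, 89.1% ± 2.05 and 89.0% ± 0.602.

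**Figure D5:**
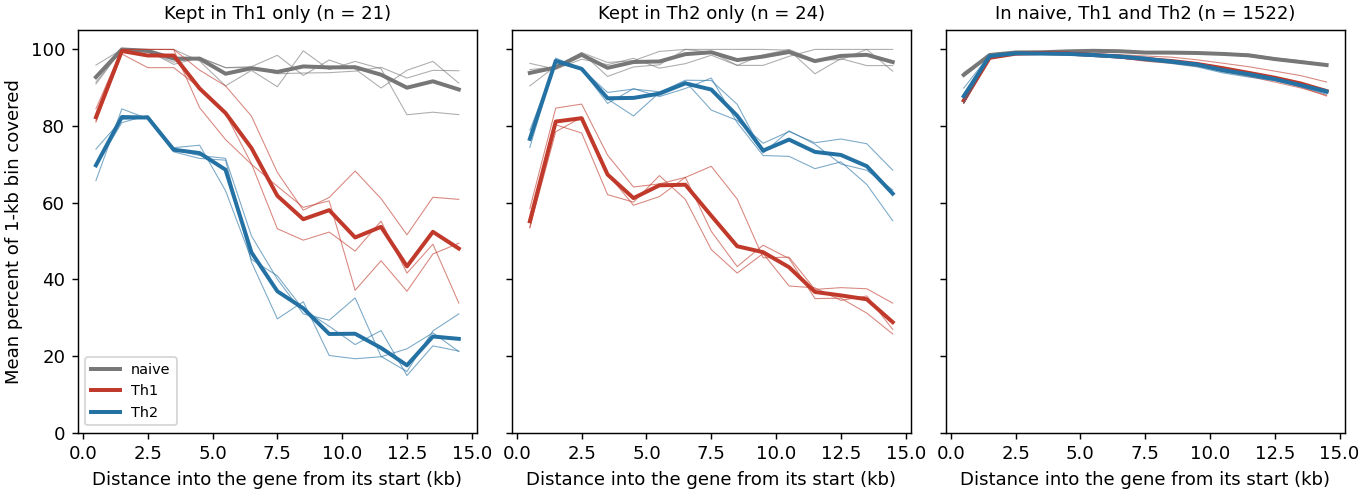
Mean percent of each 1-kb bin that was covered (y axis) against the distance into the gene from its start in kb (x axis), for members with 1 gene start (21 Th1-kept and 24 Th2-kept) and 1522 regions present in all 3 cell types. Thin lines are single libraries and thick lines means of 3; Th1 falls to 28.8% and Th2 to 62.4% at the far end of Th2-kept regions, while all 3 are at 89.0% or more at the far end in the last panel.

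In the median, the longest peak of a wide member spanned less of it in the cultured than in the naive cells, though not in every member: in Dock9 the Th1 peaks nearly closed the region and the naive ones had gaps. In the 264 Th2-kept regions of at least 10 kb, the longest single peak spanned a median of 63.1 to 75.8% of the region in the naive lists, 35.7 to 43.1% in the Th2 lists and 12.3 to 16.5% in the Th1 lists. The median number of peaks was 2 in each naive list and 3 to 4 in the others. In the 114 Th1-kept ones the longest peak spanned 62.7 to 76.4% in naive, 36.2 to 49.2% in Th1 and 18.7 to 21.1% in Th2 lists.

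The members were weak regions in naive cells. The authors' fold enrichment of the strongest peak had a median of 2.51 to 2.57 in the naive lists for Th1-kept and 2.48 to 2.58 for Th2-kept regions. It was 4.65 to 4.86 for regions in all 3 cell types and 2.14 to 2.24 for those in naive cells only. Among regions of 5 to 15 kb it was 2.54 to 2.68, 2.53 to 2.61, 4.03 to 4.12 and 2.38 to 2.46. The members thus lay nearer to naive-only regions than to shared ones, at like width too.

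Mature miRNAs lay in members of both directions, and they show that a member is not bare at each base. They were named after their values were seen, with RefSeq sequences of GRCm38.p6 and the seed, bases 2 to 8, in capitals.
miR-1903 (in Nrp1): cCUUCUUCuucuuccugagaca
miR-6340 (in the Rab22a region): gUCAGCAGcagcuucgcuuuggc
let-7i-5p (in the Mon2 region): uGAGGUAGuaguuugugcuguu
miR-150-3p (in the Aldh16a1 region): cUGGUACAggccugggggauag
miR-1903 was under peaks in all naive and all Th2 lists and in no Th1 list, as its Th2-kept region was called. miR-6340, in a Th1-kept region, was under peaks in all naive lists and in no Th1 or Th2 list. let-7i-5p, whose family represses cell cycle genes, and miR-150-3p, from a miRNA gene of mature lymphocytes, were under peaks in all 9 lists, although their regions were called Th1-kept and Th2-kept. None of the 4 shares its seed with another.

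All 8 annotated T lineage markers were at least 50% covered in each cell type, and some markers of other cells were covered as well, against the labels. Of 6 NK cell markers, the summed percent covered ran from 40.9 to 53.4 in naive, 242.7 to 258.7 in Th1 and 5.18 to 31.0 in Th2 lists, with Ncr1 and Klra8 at 0 in all. In the naive lists the receptor genes Klrd1 and Klrk1 made up all of it, at 17.03 to 20.9% and 19.99 to 36.4%. In the Th1 lists they were at 100% and 99.5 to 100%, and Klrb1c and Eomes gave the rest. In the Th2 lists they were at 5.18 to 10.3% and 0 to 6.17%, and Eomes gave the rest. Of 4 CD8 T cell markers it was 238.6 to 242.0, 105.4 to 110.7 and 117.4 to 122.4, with Gzmk at 0. Cd8a and Cd8b1, the chains of CD8, were at 100% in each naive list, at 0% and 7.55 to 11.9% in the Th1 lists and at 0 to 14.8% and 17.8 to 27.8% in the Th2 lists. Of 8 B cell markers it was 136.3 to 184.3, 100 and 100 to 100.1, with Pax5 and Ms4a1 at 0. Cd79a, a chain of the B cell receptor complex, was at 100% in all 9 lists, and Cd79b at 36.0 to 83.99% in the naive lists and 0% in the others. Of 8 myeloid markers it was 115.1 to 123.2, 43.5 to 58.1 and 78.95 to 100, with Lyz2, Csf1r and Cd14 at 0, and the adaptor gene Tyrobp was at 100%, 37.4 to 55.4% and 78.95 to 100%. Of 6 erythroid markers it was 71.6 to 75.3, 101.6 to 111.0 and 115.8 to 147.6, and of 10 genes of other tissues 7.96 to 9.67, 0 and 0 to 2.10. No marker gene lay in a member, and the part of other cells in the results was not tested.

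At the threshold, membership turned on a few bases. Vrk3 and Ostm1 were Th1-kept with Th2 library 3 at 49.99% and 49.98%, and Ccnb2 and Letmd1 were left out with Th2 lists at 50% and 50.03%. Itfg1 was Th2-kept with Th2 library 2 at 50.02% and Acy1 with Th1 library 1 at 49.97%. Zfp202 and Mast2 missed it with Th1 lists at 50%. At Itfg1 the lineages overlapped, with Th1 lists at 25.6%, 21.3% and 49.9% and Th2 lists at 58.8%, 50.02% and 12.8%, and the mean of Th2 minus that of Th1 was -4.15 points with matched covered length.

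Each of the 9 lists was left out in turn. A naive or kept group then left with 2 lists had to be present in both, a stricter condition by construction. Under it, 65 Th1-kept (21.3%) and 250 Th2-kept regions (35.01%) overlapped a member of the same direction every time. Of these, 25 and 87 also overlapped one with matched covered length. The Th1-kept ones among them include Il18r1, Sipa1l2, Kansl1l, Nod1, Kdm5a and Madd. The Th2-kept ones include Tox, Ldlrad4, Nedd4l, Tle4, Chn2, Cers6, Tcf7, Ifngr2, Ccr8 and Nr1d2. With peaks of a −log10 q of at least 5 as the added condition in place of matched length, 12 and 31 met it.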

How the data were processed

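The deposited files are broad peak lists, 1 for each of 9 H3K79me2 libraries, so peaks were called per library. The build mm10 and the tools Bowtie2, Picard, SAMtools and MACS2 are named per the submitters' processing notes, and their versions and settings are not given in the sources used here. The 9 input libraries were not analysed here. A deposited line holds a peak's start and end, a score for display, its fold enrichment as a ratio, and its p-value and q-value as −log10. Fold values belong to a peak within its own list and were compared only within a list. The lists hold no read depth, and a deeper library can yield more covered sequence, so covered lengths are given.

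Regions, coverage and counts were computed with Python 3.11.15, numpy 2.4.6 and pandas 2.3.3 and drawn with matplotlib 3.10.9. The counting was tested on simulated lists. Genes, promoters and miRNAs come from RefSeq tables of GRCm38.p6, the assembly of mm10, and positions count from 1. Exons were not used here. A region's main gene is the protein-coding gene that holds most of its bases, and peaks cannot be assigned where genes overlap. Groups and library numbers come from the sample titles. No gene or condition was tested, because the rule used every contrast.

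The members and the 16 gene lists (324 genes) were chosen with earlier results of these data known. Named in each direction were the 10 widest members, the 5 of at least 2 kb with the largest difference between lineages, up to 12 members on listed genes, the 3 widest without a gene, and the 2 nearest the threshold on either side; 1 region that the rule named is not reported here. The alternatives were other presence thresholds, other peak filters, matched covered length, joined peaks, a minimum width and each list left out in turn.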

Additional observations from a re-analysis of the deposited data

Results flagged for a closer look

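At 14 of the regions named by rule, every list of the kept lineage lay above and every list of the other lineage below all 3 naive lists. The 2 differences from naive cells thus had opposite signs at each. Both are measured against the same naive lists and against lists that chose the region, and the difference between them was not tested. Over all members this held for 21 Th1-kept and 34 Th2-kept regions.

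Among Th1-kept regions, the mean percent covered in Th1 and Th2 lists minus that in naive lists was 26.0 and -41.0 points at Dock9. At Dgkh it was 17.6 and -53.8 points. At Coq2 it was 33.7 and -20.9 points. Il18r1 gave 20.02 and -68.5 points. Mctp2 gave 32.3 and -52.7 points and Bend4 25.4 and -58.3 points. The stretch without a gene at chr9:61662677 gave 30.1 and -28.1 points. Prf1, which encodes the pore-forming protein perforin of cytotoxic cells, was taken from the 21 after its values were seen. Its region (chr10:61296865-61305843, 8.98 kb) was at 63.2%, 69.7% and 67.9% in naive, 92.95%, 80.1% and 92.1% in Th1 and 0%, 4.73% and 13.1% in Th2 lists, a difference of 21.5 and -61.0 points. Of these, Il18r1 and Prf1 overlapped a member when any single library was left out and with matched covered length. Coq2, Mctp2 and Bend4 were lost when some library was left out, and Dock9, Dgkh and the stretch at chr9:61662677 with matched covered length.

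Among Th2-kept regions, Th1 and Th2 minus naive lists came to -49.0 and 14.2 points at Inpp4b. Atg14 gave -68.4 and 26.6 points. Epas1 gave -62.1 and 28.9 points. The stretch beside Ccr8 at chr9:120071439 gave -50.4 and 37.6 points. Glb1 gave -43.1 and 19.9 points. Arhgap15 gave -48.1 and 15.2 points at its region from chr2:44086694 and -37.6 and 13.5 points at that from chr2:44327642. Also taken after their values were seen were Ahr, at -22.5 and 28.97 points, and Dusp6, a phosphatase gene of the ERK pathway, at -20.7 and 26.6 points. Dusp6 (chr10:99234380-99271885, 37.5 kb) was at 65.7%, 63.6% and 65.0% in naive, 47.6%, 44.7% and 40.05% in Th1 and 89.6%, 91.2% and 93.4% in Th2 lists. The stretch at chr9:120071439, the Arhgap15 region from chr2:44327642, Ahr and Dusp6 were lost when some library was left out. Inpp4b, Atg14, Epas1, Glb1 and the Arhgap15 region from chr2:44086694 were lost with matched covered length. That matching removed the most peaks from the naive lists. Whether a loss under it, in either direction, lay in the naive or the lineage lists was not tested.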

How the results depend on the processing

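The number of members moved with most choices. At a presence threshold of 25% there were 1205 Th2-kept regions and 2050 kb in Th1-kept ones; at 75% there were 449 Th2-kept regions and 6051 kb in Th1-kept ones. Where the other lineage had to be bare, 19 and 98 regions with 63.1 and 254 kb were left, a stricter condition by construction. With peaks of a −log10 q of at least 5 there were 196 Th2-kept regions, with 5523 kb in Th1-kept and 6214 kb in Th2-kept ones. With matched covered length there were 167 Th1-kept and 193 Th2-kept regions, the latter with 5531 kb. The cause of these moves was not tested. The counts stayed within 1.5 times when peaks up to 1 kb apart were joined (212 and 524) and for regions of at least 2 kb (260 and 612).

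Leaving out 1 library at a time gave 146 to 482 Th1-kept regions (1874 to 5269 kb) and 434 to 1061 Th2-kept regions (7554 to 15977 kb). By construction, a left-out list also made the rule stricter for keeping its cell type and looser for calling it absent. The Th2-kept number divided by the Th1-kept number was 2.34, and it ranged over all settings from 0.900 (without Th2 library 3) to 7.27 (without Th1 library 1). Of the members, 67 (22.0%) and 135 (18.9%) still overlapped a member of their direction with matched covered length, and 33 and 62 at the −log10 q minimum. None overlapped a member of the other direction in any setting, but the rule largely fixed this. Where borders stay the same, another presence threshold, a minimum width or a left-out list cannot turn the direction of a member.

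Of 55 named regions, the mean of Th2 minus that of Th1 turned in sign only at Btbd9, to -0.258 points at the −log10 q minimum, and at Itfg1, to -4.15 points with matched covered length and -0.885 points without Th2 library 1 (-0.885 to 22.1 points over all single libraries left out). The size of the difference was less stable than its sign. At the −log10 q minimum it was classed as moved without a turn at 51 of the 55 and as the same at only 3. With matched covered length, 16 were classed as moved and 38 as the same. With single libraries left out, 54 or all 55 were classed as the same, but only a turn in sign could have changed that class. A shift counted as moved only beyond the larger SD of the Th1 and Th2 lists. Leaving out a single list of 3 cannot shift a mean that far, and naive lists do not enter the difference. No paired analysis was possible because the results come from no test and the labels document no pairing of same-numbered libraries. The unknown read depth limits what an absent peak shows.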

Other observations

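Other genes also held several Th2-kept regions. Ttc27, Fars2 (a mitochondrial tRNA synthetase gene), Trio (an exchange factor gene for small GTPases), Exoc6b (an exocyst gene) and Bbs9 held 5 each, with together 95.3, 93.7, 74.0, 42.1 and 37.4 kb. Among Th1-kept regions the most were 3, in Phlpp1, a phosphatase gene of the AKT pathway, with 32.4 kb, and in Maml3, a coactivator gene of Notch signalling, with 20.2 kb. Of all members, 68 of 305 Th1-kept and 275 of 714 Th2-kept regions lay within 100 kb of another of the same direction. A larger set has closer neighbours by its number alone, so these counts do not compare the directions. The like count for all naive regions was not made. On the X chromosome there were 16 Th1-kept and 12 Th2-kept regions, among 599 naive regions. These genes were named after their values were seen, and nothing was tested.

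The Rtn4rl1 region (chr11:75173643-75279377, 105.7 kb), Th2-kept, was at 95.6%, 96.4% and 97.0% in naive, 13.2%, 12.2% and 14.8% in Th1 and 75.1%, 84.7% and 80.2% in Th2 lists. It begins beside miR-132, whose mature sequences were under a peak in Th2 library 2 only. The region on Vdac1, next to Tcf7 on chromosome 11, had means of 98.9%, 37.2% and 60.8% in naive, Th1 and Th2 lists over 71.1 kb. Arhgef11, an exchange factor gene for RhoA, had 99.3%, 21.5% and 93.7% over 66.5 kb, and Tspan9, a tetraspanin gene, 95.8%, 15.2% and 84.0% over 69.4 kb. Among Th1-kept regions Macroh2a1, which encodes a histone variant, had 91.7%, 94.4% and 44.0% over 18.2 kb.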
